A study of Mus musculus with 12 samples.

Results

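The hedgehog ligands, receptors, transcription factors and feedback targets were followed in mouse pancreas tumours. The set holds 9 genes, namely Shh, Ihh, Dhh, Ptch1, Smo, Gli1, Gli2, Gli3 and Hhip. They were taken by symbol from the probe sets that the platform annotation assigns to exactly 1 gene, and the probe set of highest mean stands for each gene. All 9 were measured, among 30142 genes in all, each by 1 probe set. Total RNA of 12 tumours was hybridised to 12 one-colour expression arrays, 1 per mouse, with 3 mice in each of 4 groups. Every mouse was of the PKT background, as the labels name it, and came from a line named for a thymidine kinase (TK) transgene, whose product makes cells sensitive to ganciclovir. In the FAP-TK line the enzyme is linked to fibroblast activation protein (Fap), and in the aSMA-TK line to alpha smooth muscle actin (Acta2), the marker of myofibroblasts and smooth muscle. Each line gave a control and a depleted group, labelled FAP-TK control and FAP depleted in the former and aSMA-TK control and aSMA depleted in the latter, and the comparisons ask how the tumour transcriptome differs once each stromal population has been targeted. Ganciclovir at 50 ug per kg is given in the labels for all 12 tumours, while the controls are marked as having no depletion, so whether they received the drug is not clear and an effect of the drug cannot be told apart from one of the depletion. The sources used here do not give the age of the mice.

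Hedgehog signalling is a relay between cells. A secreted ligand binds Patched on the receiving cell, which releases Smoothened from inhibition, and the Gli transcription factors then switch on target genes that include Gli1, Ptch1 and Hhip themselves. In pancreas tumours the ligand is known to come mainly from the epithelium and to act on the surrounding fibroblasts, so Gli1 and Ptch1 are commonly read as markers of stroma that receives the signal. Because whole tumours were profiled, fewer cells of a type and less RNA per cell cannot be told apart in any value below.

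The values are log2 intensities, quantile normalized between arrays, and differences are given in the same log2 units. The range of the deposited values was too wide for the differences to be read as folds. The separation of positive from negative control probe sets was 2.69 to 2.99 on 3 arrays (FAP-TK control 1 and 3 and FAP depleted 2) and 4.32 to 4.89 on the other 9. The negative control medians lay at 5.46 to 6.49 on the FAP-line arrays and at 4.46 to 4.88 on the aSMA-line arrays. Fap was lower in every FAP depleted tumour than in every control, with a difference of -1.11 ± 0.37 (SE), although the adjusted p was 1.00 in limma. Set against each array's own negative control median, the deposited Fap values of the groups overlapped. FAP depleted 3 read 6.4 over a median of 5.46, and FAP-TK control 1 read 7.04 over a median of 6.49. The group mean of Acta2 was not lower under the label aSMA depleted, with a difference of 1.68 ± 1.71 (95% interval -2.15 to 5.50). The difference was -0.39 once the mean of the fibroblast markers described below was a covariate. Labelled aSMA depleted 1, at 10.13, lay below every aSMA-TK control (10.85 to 12.26). Tumour 2, at 13.86, and tumour 3, at 15.28, lay above all of them. The mean of 6 smooth muscle and myofibroblast markers split likewise. It was 6.49 for tumour 1, 9.06 for tumour 2 and 9.17 for tumour 3, against 7.03 to 7.62 in aSMA-TK controls. The tumours labelled aSMA depleted are therefore called by their label throughout. All 10 ductal epithelium markers were above background, with a mean over the list of 13.45 to 15.51 across the 12 tumours.

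Shh, the ligand that pancreas tumour epithelium is known to produce, was the one hedgehog gene above the strictest background level on nearly every array. It exceeded the 95th percentile of the negative control probe sets on 11 of 12 arrays. In the FAP-TK control tumours its log2 values were 14.25, 13.81 and 9.89, and in the FAP depleted tumours they were 12.50, 12.93 and 13.51. The depleted values lay inside the range of the controls, which was set by the low value of FAP-TK control 3. The difference was 0.33 ± 0.99 (SE, 95% interval -1.90 to 2.55, limma adjusted p = 1.00), so neither a large gain nor a large loss could be told from none. Its sign rested on FAP-TK control 3, without which the difference was -1.05. It was -0.81 without the 3 arrays of low separation, which include that tumour, and 1.64 with array weights. Among aSMA-line tumours Shh read 12.68, 12.08 and 13.43 in controls, and 10.82, 12.24 and 10.76 in those labelled aSMA depleted. Labelled aSMA depleted 1 and 3 lay below every control, and tumour 2 within the control range. The difference of -1.46 ± 0.99 (95% interval -3.68 to 0.77) had a limma adjusted p of 0.944. Shh lies on mouse GRCm38.p6 chr5:28456840-28467101.

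Ihh and Dhh, the ligands better known from cartilage and gut and from testis and peripheral nerve, were near or below background. Ihh was above the negative control median on 6 of 12 arrays and Dhh on 0 of 12. Ihh ranged from 4.59 to 5.12 in FAP-TK controls, 5.04 to 5.28 in FAP depleted tumours, 5.11 to 5.69 in aSMA-TK controls and 5.13 to 5.41 in the tumours labelled aSMA depleted. Dhh ranged from 4.12 to 5.03 over all 12 tumours. For neither ligand did the groups of a line separate. The depletion differences were 0.24 ± 0.18 for Ihh and 0.29 ± 0.21 for Dhh in the FAP line, and -0.11 ± 0.18 and 0.13 ± 0.21 in the aSMA line. Ihh lies on chr1:74945315-74951672 and Dhh on chr15:98881615-98898562.

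**Figure D1:**
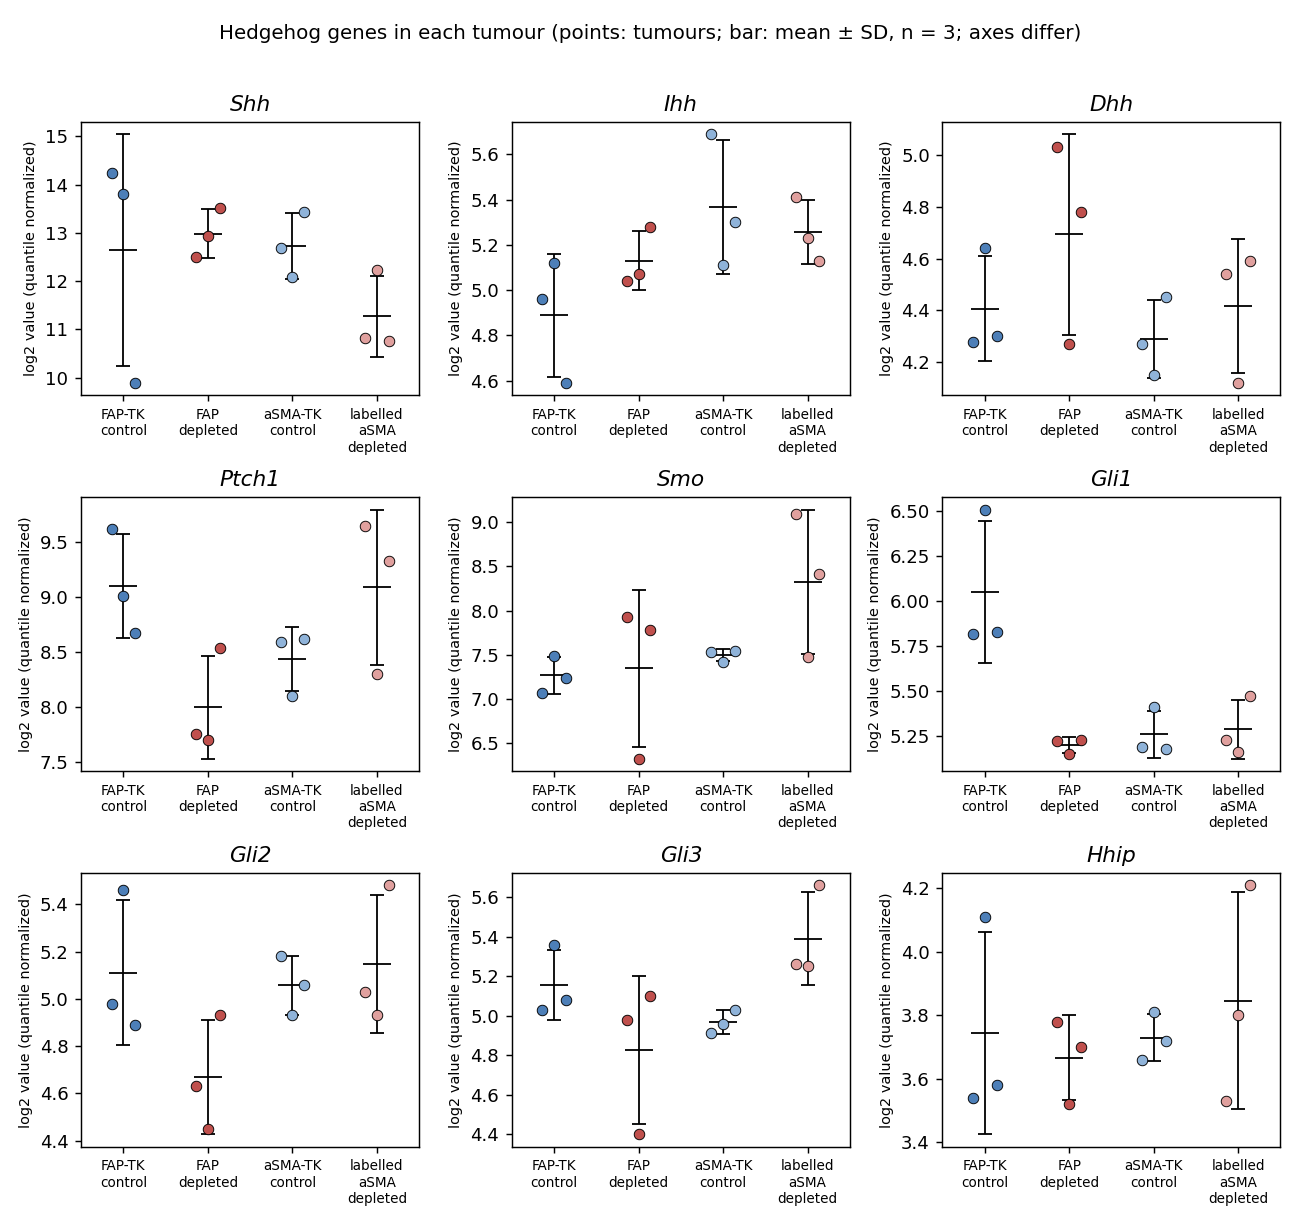
Quantile normalized log2 values of the 9 hedgehog genes (vertical axes, which differ between panels) in the 4 groups, with 1 point per tumour and a bar for the mean ± SD (n = 3). The 3 FAP-TK control tumours hold the highest Gli1 values (5.82 to 6.51), and Shh in these controls spans 9.89 to 14.25.

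Ptch1 encodes Patched, the ligand receptor and itself a target of the pathway. It read 9.62, 9.01 and 8.68 in FAP-TK controls and 7.76, 7.70 and 8.54 in FAP depleted tumours. Every FAP depleted tumour lay below every control, with FAP depleted 3 close to the lowest of them. Against each array's own negative control median the deposited values were 3.53, 3.82 and 2.73 in controls and 2.48, 1.79 and 3.31 in FAP depleted tumours, so on that scale the groups overlapped. The difference of -1.10 had a 95% interval of -1.95 to -0.25 and an unadjusted p of 0.0168, at place 389 of 30142 genes, but its adjusted p was 1.00 in limma. The exact two-sided permutation test gave 0.1, the smallest value 3 against 3 can give. Ptch1 read 8.59, 8.10 and 8.62 in aSMA-TK controls, and 9.65, 8.30 and 9.33 in tumours labelled aSMA depleted. Tumours 1 and 3 of the latter, which were low in Shh, lay above every control, and the difference was 0.66 ± 0.38 (95% interval -0.20 to 1.51, limma adjusted p = 0.944). Ptch1 was above the negative control median on all 12 arrays and above their 95th percentile on 2.

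Smo encodes Smoothened, the signal transducer that Patched holds in check. It read 7.07, 7.49 and 7.24 in FAP-TK controls and 7.93, 6.32 and 7.78 in FAP depleted tumours. The FAP depleted tumours lay on both sides of their controls, and the lowest of them, FAP depleted 2, is one of the arrays of low separation. The difference was 0.08 ± 0.46, and it turned to -0.03 with the values as deposited. The aSMA-TK controls were close together at 7.53, 7.42 and 7.54, and the tumours labelled aSMA depleted read 9.10, 7.47 and 8.41. Tumours 1 and 3, the same animals that were high in Ptch1, exceeded every control. The difference of 0.83 ± 0.46 (95% interval -0.20 to 1.86) had a limma adjusted p of 0.944. Smo was above the negative control median on 12 of 12 arrays and above the 95th percentile of the negative controls on 1. Smo lies on chr6:29735497-29761366.

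Gli1, the transcription factor whose own transcription is the usual readout of the pathway, separated the FAP-line groups most clearly of the 9 genes. It read 5.82, 6.51 and 5.83 in FAP-TK controls, and the FAP depleted tumours were nearly equal to one another at 5.22, 5.15 and 5.23. On this scale all 3 controls lay above all 3 depleted tumours, and above all 6 tumours of the aSMA line. Set against each array's own negative control median, the deposited Gli1 values were -0.21, 1.22 and 0.06 in FAP-TK controls and -0.14, -0.72 and -0.06 in FAP depleted tumours. There the groups overlapped, through the low value of FAP-TK control 1. The FAP-line difference of -0.85 had a 95% interval of -1.26 to -0.45 and stood at place 22 of 30142 genes by p (unadjusted p = 0.000819), yet the limma adjusted p was 1.00. The smallest adjusted p of any gene in this comparison was 0.785. The exact permutation test gave 0.1 here too.

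The Gli1 difference kept its sign when any 1 array was left out, at -0.97 to -0.63, and was smallest without FAP-TK control 2. Without the 3 arrays of low separation it was -1.29, over 1 FAP-TK control and 2 FAP depleted tumours, with a limma adjusted p of 0.0775. The signal was weak in absolute terms. Gli1 exceeded the negative control median on 2 of 3 FAP-TK control arrays and 0 of 3 FAP depleted arrays, and exceeded the 95th percentile of the antigenomic background probe sets on 3 of 3 and 2 of 3. It exceeded the 95th percentile of the negative controls on 0 of 12 arrays. The FAP depleted values, and those of FAP-TK controls 1 and 3, are thus close to the floor of the array. FAP-TK control 2 lay 1.22 above its negative control median. Gli1 lies on chr10:127329882-127341579.

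Gli1 read 5.19, 5.41 and 5.18 in aSMA-TK controls, and 5.23, 5.16 and 5.47 in tumours labelled aSMA depleted. The groups overlapped throughout. The difference was 0.02 ± 0.18, and its 95% interval of -0.38 to 0.43 does not reach the size measured in the FAP line. On the quantile normalized scale the aSMA-TK controls were, however, already at the level of the FAP depleted tumours. Against each array's own negative control median they read 0.35, 0.59 and 0.04, above every FAP depleted tumour. They exceeded that median on 3 of 3 arrays, and the 95th percentile of the antigenomic probe sets on 1 of 3. With values this near background, a fall of the size measured in the FAP line might not have been seen.

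**Figure D2:**
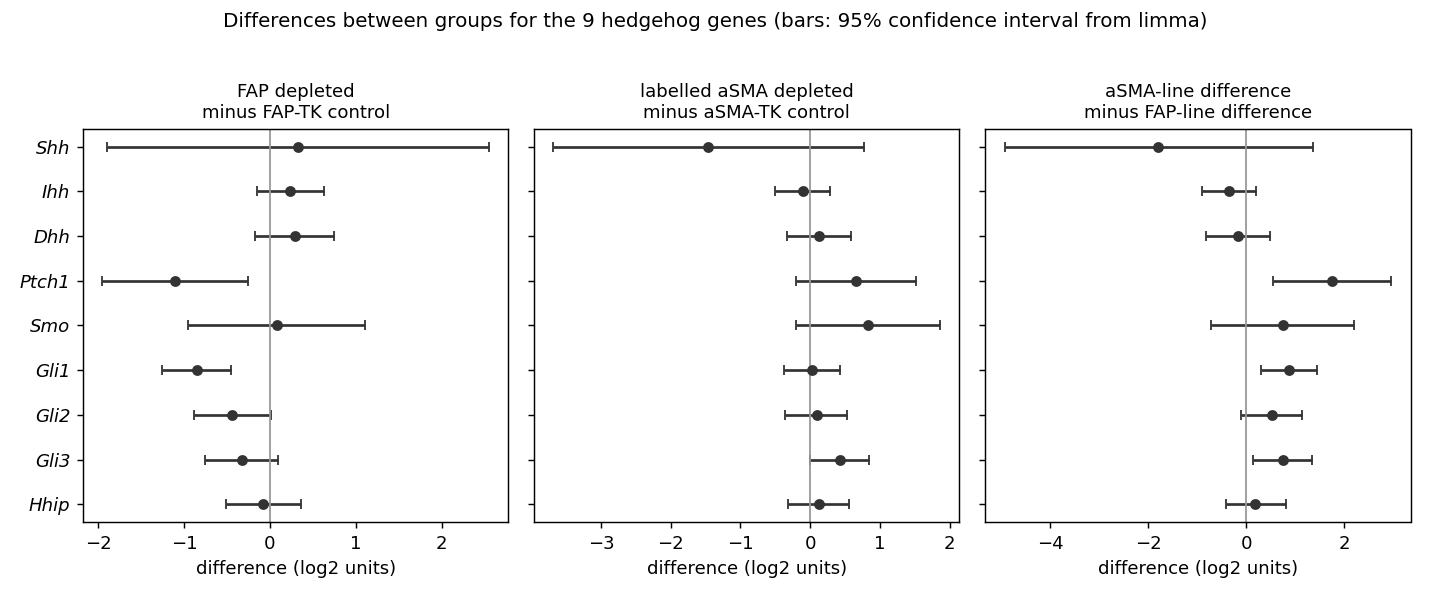
Differences between groups (horizontal axes, log2 units) for the 9 hedgehog genes, with 95% confidence intervals from limma, for each depletion and for the aSMA-line difference minus the FAP-line difference. The interval lies below 0 for Ptch1 and Gli1 in the FAP line, and above 0 for Ptch1, Gli1 and Gli3 in the third panel, before adjustment over all genes.

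Gli2, the main activator among the Gli factors, read 4.98, 5.46 and 4.89 in FAP-TK controls and 4.63, 4.45 and 4.93 in FAP depleted tumours. One depleted tumour overlapped the controls, and the difference was -0.44 with a 95% interval of -0.88 to 0.01. Gli3, which acts mostly as a repressor when no ligand is present, read 5.03, 5.36 and 5.08 in FAP-TK controls and 4.98, 4.40 and 5.10 in FAP depleted tumours. Here too 1 depleted tumour overlapped, and the difference was -0.33 with a 95% interval of -0.75 to 0.09. For both genes the groups separated with the values as deposited, where the differences were -0.52 and -0.42. The limma adjusted p was 1.00 for both genes under either scaling. Set against each array's own negative control median, the groups overlapped for both genes. Gli2 then read -1.15, 0.07 and -1.04 in FAP-TK controls and -0.77, -1.53 and -0.35 in FAP depleted tumours. Gli3 read -1.08, -0.03 and -0.79 in these controls and -0.38, -1.59 and -0.18 in the depleted tumours.

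Gli2 spanned 4.93 to 5.18 in aSMA-TK controls and 4.93 to 5.48 in the tumours labelled aSMA depleted, with a difference of 0.09 ± 0.20. Gli3 read 4.91, 4.96 and 5.03 in controls, and every tumour labelled aSMA depleted lay above them, from 5.25 to 5.66. The difference of 0.42 ± 0.19 had an unadjusted p of 0.0516 and a limma adjusted p of 0.944. Against each array's own negative control median the Gli3 groups overlapped. They read 0.11, 0.23 and -0.09 in controls and 0.02, 0.29 and 0.78 in tumours labelled aSMA depleted. Gli2 and Gli3 were each above the negative control median on 5 of 12 arrays, so these values too lie near background. Gli2 lies on chr1:118834061-119054405.

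Hhip encodes a membrane protein that binds hedgehog ligands and limits their action, and it is a target of the pathway as well. It was above the negative control median on 0 of 12 arrays. Its values ran from 3.52 to 4.21 over the 12 tumours, and the groups of both lines overlapped. The differences were -0.08 ± 0.19 in the FAP line and 0.12 ± 0.19 in the aSMA line, and at this level of signal a difference could not be detected. Hhip lies on chr8:79965850-80058060.

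Sequence upstream of the start is shown for Ptch1, Gli2 and Gli3, the members with a promoter entry whose deposited values were lower in every FAP depleted tumour than in every control. Gli1, the other member of that kind, and Shh had no entry. Each line gives the 250 bases before the RefSeq start on GRCm38.p6, read 5′ to 3′ on the strand of the gene, with every GC box (GGGCGG or its reverse complement CCGCCC) in capitals.
Ptch1 (chr13:63565736-63565985, minus strand): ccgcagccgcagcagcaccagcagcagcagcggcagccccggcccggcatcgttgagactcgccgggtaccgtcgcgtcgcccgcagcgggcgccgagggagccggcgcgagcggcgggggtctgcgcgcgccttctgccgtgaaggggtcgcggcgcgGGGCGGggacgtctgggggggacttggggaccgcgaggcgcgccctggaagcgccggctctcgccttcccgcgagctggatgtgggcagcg
Gli2 (chr1:119053620-119053869, minus strand): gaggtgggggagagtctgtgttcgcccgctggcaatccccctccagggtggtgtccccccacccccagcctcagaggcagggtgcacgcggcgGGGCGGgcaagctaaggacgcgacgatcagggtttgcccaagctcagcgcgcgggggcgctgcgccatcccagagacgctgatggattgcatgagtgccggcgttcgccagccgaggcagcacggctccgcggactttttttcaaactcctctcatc
Gli3 (chr13:15463473-15463722, plus strand): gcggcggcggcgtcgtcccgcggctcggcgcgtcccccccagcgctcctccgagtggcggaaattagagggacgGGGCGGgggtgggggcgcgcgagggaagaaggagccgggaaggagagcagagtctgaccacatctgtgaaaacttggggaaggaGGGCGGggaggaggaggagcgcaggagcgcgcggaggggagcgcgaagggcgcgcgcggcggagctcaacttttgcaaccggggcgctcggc
The Ptch1 window belongs to a start 7725 bases inside the outer end of the gene (chr13:63508328-63573460), the Gli2 window to one 786 bases inside, and the Gli3 window to the outer end itself (chr13:15463723-15730026). Guanine and cytosine made up 78.4% of the Ptch1 window, 67.2% of the Gli2 window and 72.8% of the Gli3 window. A GC box was found in 6 of the 7 members with an entry, against 32.7% of all 32851 windows. The core letters of the Gli binding site, GACCACCCA or TGGGTGGTC on the other strand, were searched in the 300 bases from 250 before to 50 after each start. They were found in 0 of 7 members, against 0.253% of all windows, and in 0 of 7 with up to 1 letter changed, against 6.74%. These letters were thus not in these windows, which cover only a small part of each gene's surroundings.

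Across the set, no member passed the adjusted threshold of 0.05 in either depletion comparison, nor did any of the 30142 genes (0.00% called in each). In the FAP line 5 of 9 members were below 0 and 4 above, with a median difference of -0.08 against 0.04 over all genes, of which 40.1% were below 0. Of the 9, Ptch1 and Gli1 had an unadjusted p under 0.05, both lower, where 1.06% of all genes did in that direction and 3.71% (1117 genes) in either. The same 2 of 9 members lay below their controls without overlap, as 2.50% of all genes did. With the values as deposited Gli2 and Gli3 joined them, making 4 of 9, against 2.77% of all genes. Set against each array's own negative control median, the groups overlapped for each of these 4 members. Of the 9 members, 7 were above 0 in the aSMA line, as were 53.2% of all genes, with a median of 0.12 against 0.01 over all genes. None of the 9 had an unadjusted p under 0.05, against 4.81% of all genes (1450), and Gli3 was the 1 member without overlap, higher, as were 7.43% of all genes. Against the negative control median Gli3 overlapped here too.

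The difference between the depletion effects of the lines was then tested itself. The effect in the aSMA line minus that in the FAP line was 1.75 for Ptch1 (95% interval 0.55 to 2.96), 0.88 for Gli1 (0.31 to 1.45) and 0.75 for Gli3 (0.15 to 1.35). The unadjusted p was 0.00902 for Ptch1, 0.00627 for Gli1 and 0.0191 for Gli3, and the limma adjusted p was 0.829 for each. These 3 of 9 members were past an unadjusted 0.05, all higher, where 2.09% of all genes were higher and 5.96% (1796 genes) differed in either direction, while 0.00% of genes were called. Shh stood on the other side at -1.79 ± 1.41 with a limma adjusted p of 0.864. The lines were thus not shown to differ in the depletion effect on any member once all genes were accounted for.

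Gli1 was also the 1 member that passed the adjusted threshold in a test over all genes. The moderated F test across the 4 groups gave Gli1 an F of 10.23 and a limma adjusted p of 0.0425, where 6.68% of all genes (2014) were called, and Ptch1 came next with an adjusted p of 0.179. Between the undepleted tumours, Gli1 was lower in aSMA-TK controls (mean 5.26 ± 0.13 SD, n = 3) than in FAP-TK controls (6.05 ± 0.40, n = 3), a difference of -0.80 ± 0.18 (SE) with a limma adjusted p of 0.0316. It was the only 1 of 9 members called there, against 7.80% of all genes (2350), of which 910 were lower (3.02%). The call was lost, at adjusted p values of 0.0517 to 0.0922, without any one of FAP-TK control 3, FAP depleted 1 and aSMA-TK controls 1, 2 or 3, and was 0.108 with the control groups fitted alone. As deposited the difference was -1.61 and without the 3 arrays of low separation -1.25, while the median of all genes was itself at -0.39 between these groups as deposited and at 0.07 after normalization. Set against each array's own negative control median, Gli1 read 0.35, 0.59 and 0.04 in aSMA-TK controls, within the range of the FAP-TK controls given above. The line and the background level of its arrays cannot be told apart.

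Ptch1 and Gli3 were also lower in every aSMA-TK control than in every FAP-TK control, with differences of -0.66 ± 0.38 and -0.19 ± 0.19 and limma adjusted p values of 0.283 and 0.537. With Gli1 this makes 3 of 9 members, against 13.8% of all genes, and the other 6 overlapped between the control groups. With the values as deposited Dhh, Smo and Gli2 separated as well, making 6 of 9 members lower, against 51.3% of all genes. Against the arrays' own negative control median Gli3 turned, at -1.08, -0.03 and -0.79 in FAP-TK controls and 0.11, 0.23 and -0.09 in aSMA-TK controls. On that scale Ptch1 overlapped, at 3.53, 3.82 and 2.73 in FAP-TK controls and 3.68, 3.05 and 3.43 in aSMA-TK controls. Between the depleted groups 0 of 9 members were called, against 5.18% of all genes (1562). There Ptch1 was higher by 1.09 ± 0.38, Smo by 0.98 ± 0.46, Gli3 by 0.56 ± 0.19 and Gli2 by 0.47 ± 0.20 in the tumours labelled aSMA depleted, with limma adjusted p values of 0.119, 0.223, 0.110 and 0.178. Gli3 alone of these did not overlap, as 18.2% of all genes did not in that direction. With the values as deposited the Gli3 difference turned to -0.10, with overlap, and that of Gli2 to -0.16, and 4 of 9 members were lower without overlap, against 55.6% of all genes. Shh was on the lower side without overlap, at -1.70 ± 0.99, as 14.8% of all genes were. Against the negative control median Shh overlapped, at 7.16, 6.92 and 8.19 in FAP depleted tumours and 5.66, 7.38 and 6.26 in those labelled aSMA depleted.

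The fibroblast content of the tumours was read from a list of 12 markers, 11 of them measured and all 11 above background. Fap, to which the enzyme of the FAP-TK line is linked, is among the measured markers. Their mean was 8.89, 10.20 and 10.26 in FAP-TK controls and 9.83, 7.54 and 9.94 in FAP depleted tumours. In the FAP line 10 of 11 markers were below 0, with a median difference of -0.57, and none was called. With the fibroblast mean as a covariate, an alternative chosen after seeing the data, the FAP-line difference was -0.79 for Gli1 and -1.12 for Ptch1, beside -0.85 and -1.10 without it. The part of fibroblast loss in these differences was not tested. The covariate is no test of it, because its values include Fap itself and the arrays of low separation.

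The fibroblast mean was 9.79, 9.70 and 9.15 in aSMA-TK controls and 9.94, 10.42 and 10.95 in tumours labelled aSMA depleted, with 11 of 11 markers above 0 and a median of 0.73. With the same covariate the Gli3 difference was 0.21 in place of 0.42 and the Smo difference 0.46 in place of 0.83, while Ptch1 stayed at 0.68. Leukocyte markers averaged 6.49, 9.13 and 8.69 in FAP-TK controls and 8.37, 6.10 and 8.45 in FAP depleted tumours, with the lowest value of each group on an array of low separation. The mean of the acinar markers spanned 7.27 to 9.49 in FAP-TK controls and 8.65 to 11.03 in FAP depleted tumours. Ductal epithelium markers averaged 13.90, 14.52 and 13.45 in FAP-TK controls and 15.20, 13.76 and 15.51 in FAP depleted tumours. All 10 were above 0 in that comparison, with a median difference of 0.89 and none called. Between the control groups, where Gli1 was called, 9 of 10 were higher in the aSMA line, with a median of 0.98 and 2 called. The part of leukocytes, acinar cells and ductal epithelium in the hedgehog values was not tested.

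**Figure D3:**
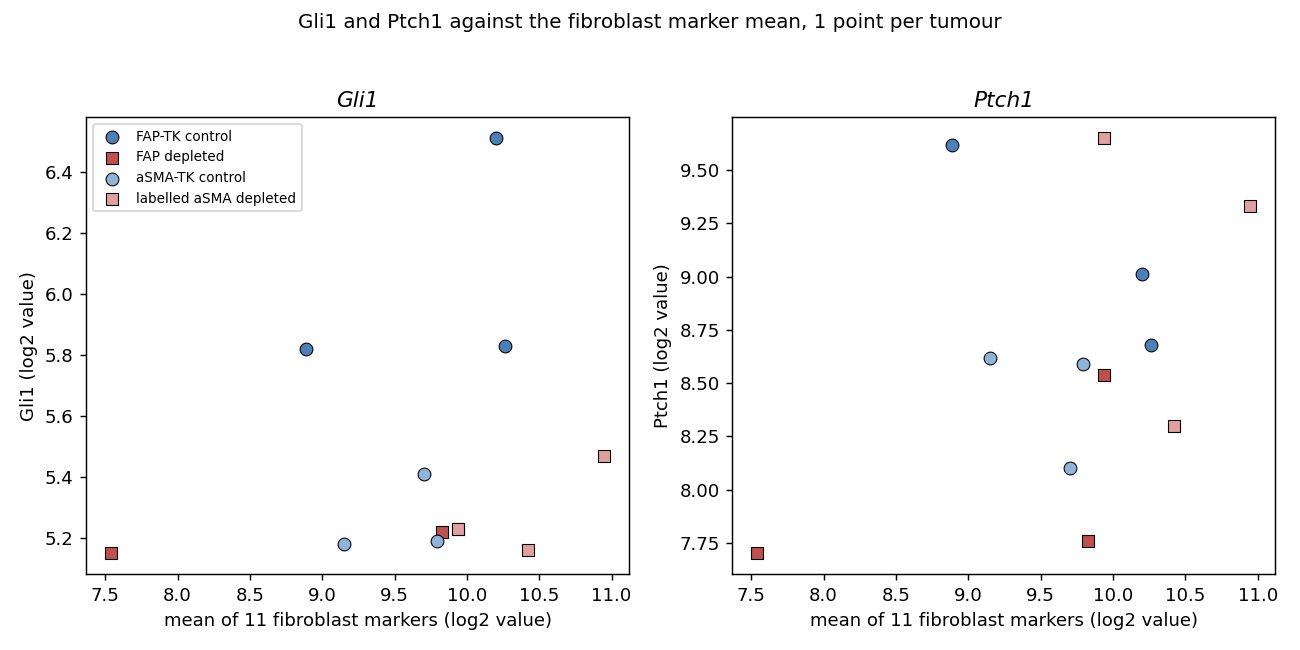
Gli1 and Ptch1 (vertical axes, log2 values) against the mean of 11 fibroblast markers (horizontal axes, log2 values), 1 point per tumour with circles for controls and squares for depleted groups. The fibroblast mean spans 8.89 to 10.26 in FAP-TK controls and 7.54 to 9.94 in FAP depleted tumours, and FAP depleted 3 is hidden behind a tumour labelled aSMA depleted in the left panel.

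The Gli1 and Ptch1 differences of the FAP line were below 0 under every setting tried. Ptch1 lay between -1.37 and -0.84 when 1 array was left out, and at -0.85 without the 3 arrays of low separation. Values as deposited gave -1.0 for Gli1 and -1.17 for Ptch1, and array weights estimated by limma from the spread within groups gave -0.70 and -0.93. The weights did not follow the separation. They were 0.546, 2.2 and 0.404 for FAP-TK control 1 and 3 and FAP depleted 2, and 0.406 for FAP-TK control 2. With these weights the limma adjusted p was 0.095 for Gli1 and 0.190 for Ptch1.

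**Figure D4:**
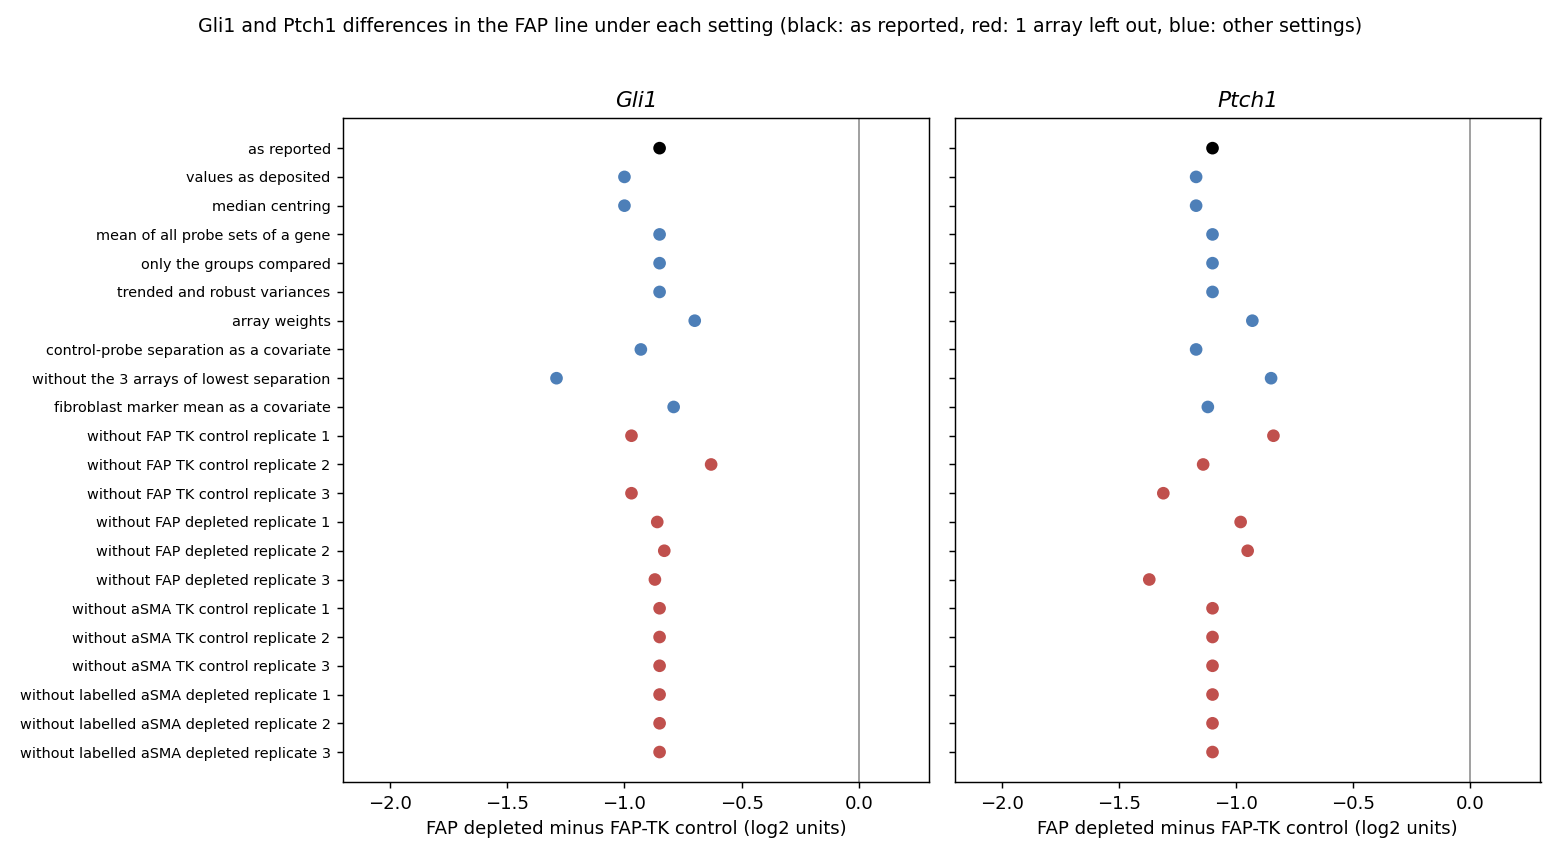
Gli1 and Ptch1 differences between FAP depleted and FAP-TK control tumours (horizontal axes, log2 units) under each setting, in black as reported, in red with 1 array left out and in blue for other settings. Every point lies below 0, between -1.29 and -0.63 for Gli1 and between -1.37 and -0.84 for Ptch1.

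Other genes of the pathway were taken from a list of 58, of which 53 were measured. No gene of it was called in either depletion comparison. In the FAP line 32 of 53 were above 0 and 21 below, with a median of 0.03, where 40.1% of all genes were below 0. Of the 53, 1 had an unadjusted p under 0.05, against 3.71% of all genes. That gene was Kif3a, a motor subunit that builds the primary cilium on which Smoothened acts. It read 7.72, 8.08 and 8.20 in FAP-TK controls and 8.60, 8.20 and 8.77 in FAP depleted tumours, so that the groups met at 8.20, and overlapped with the values as deposited. The difference was 0.53 ± 0.21 (unadjusted p = 0.0342). The next smallest p values belonged to Disp1, which releases the ligand from the cell that makes it (0.36 ± 0.17), and to Jag2, a Notch ligand (0.31 ± 0.16). The groups did not overlap for Disp1, at up to 6.66 in controls and from 6.67 in FAP depleted tumours, and overlapped for Jag2.

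For the aSMA line 39 of 53 of these genes were above 0 and 14 below, with a median of 0.14, where 53.2% of all genes were above 0. Of the 53, 3 had an unadjusted p under 0.05, all higher, against 4.81% of all genes, a share close to theirs. Hsd11b1, which activates glucocorticoids inside cells, read 6.12, 5.36 and 5.58 in controls and 6.74, 6.41 and 7.70 in tumours labelled aSMA depleted, all of them above every control. The difference was 1.27 ± 0.50 (unadjusted p = 0.0304, limma adjusted p = 0.944). Evc, a cilium protein that works with Smoothened, differed by 0.28 ± 0.11 without overlap, but was not above the negative control median on any array. Gpr161, a receptor that restrains the pathway at the cilium, differed by 0.31 ± 0.14 without overlap, but overlapped with the values as deposited. Of all genes, 7.43% were higher without overlap here.

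By role, the median difference in the FAP line was 0.06 for the 7 genes of ligand release and transport, -0.03 for the 6 co-receptors, 0.11 for the 21 cilium genes and inhibitors and 0.03 for the 19 mesenchymal targets. In the aSMA line the same medians were 0.10, 0.04, 0.14 and 0.22. Sfrp1, a secreted Wnt antagonist chosen after its values were seen, had differences of opposite sign in the lines, -2.55 ± 1.49 and 2.11 ± 1.49, with unadjusted p values of 0.119 and 0.190. Without 1 array the FAP-line value ranged from -3.63 to -0.85. It was -0.51 with array weights, -4.57 without the 3 arrays of low separation and -1.35 with the fibroblast covariate, which gave 0.54 in the aSMA line.

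**Figure D5:**
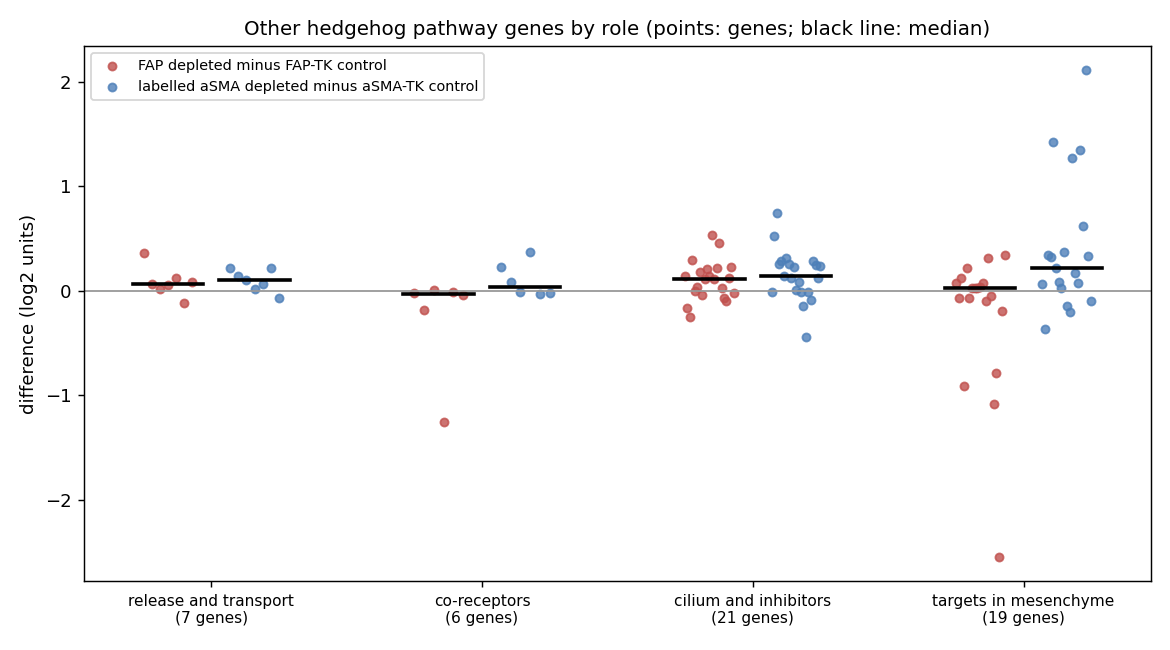
Differences (vertical axis, log2 units) of the 53 other measured hedgehog pathway genes by role, 1 point per gene with a black line at the median, for FAP depleted minus FAP-TK control (red) and labelled aSMA depleted minus aSMA-TK control (blue). The medians lie between -0.03 and 0.22.

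Between the lines 2 of 53 were called in controls, against 7.80% of all genes, and 3 of 53 in the depleted groups, against 5.18%, shares close to or below those of all genes. Gas1, a co-receptor that helps ligand bind Patched, was higher in aSMA-TK controls than in FAP-TK controls by 0.52 ± 0.11 (limma adjusted p = 0.0279), and Csnk1a1, a kinase that marks Gli proteins for processing, was lower, with a difference of -1.0 ± 0.26 (adjusted p = 0.0458). Between the depleted groups Gas1 was higher in the tumours labelled aSMA depleted by 0.49 ± 0.11 (adjusted p = 0.0374), as was the co-receptor Boc by 0.56 ± 0.13 (adjusted p = 0.0380). Foxl1, a factor of gut mesenchyme, was lower there, with a difference of -0.59 ± 0.10 (adjusted p = 0.0138). These calls were not stable. All 5 were lost with only the compared groups fitted, and Foxl1 also without FAP depleted 1 (adjusted p = 0.0532). Between controls, the Gas1 call was lost without any one of FAP-TK controls 1 and 3 and aSMA-TK controls 1, 2 and 3 (adjusted p up to 0.0911). The Csnk1a1 call held only without FAP-TK control 2 or labelled aSMA depleted 1 or 3, and was lost without any of the other 9 arrays (up to 0.140). Between depleted groups, the Gas1 call held only without FAP-TK control 1 or 2 (otherwise up to 0.112), and the Boc call only without FAP-TK control 1 or 2 or aSMA-TK control 2 (otherwise up to 0.102). With the values as deposited the Boc difference turned to -0.13 and the Gas1 differences shrank to 0.21 and 0.09, none of them called. Gas1 and Foxl1 were above the negative control median on 0 of 12 arrays, and the line cannot be told apart from the background level of its arrays for any of these genes.

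The genes most like Gli1 across the 12 tumours, after the mean of each line was taken off, were sought among 10385 genes above the negative control median on at least 6 arrays. They were Abi3bp (r = 0.96, rho = 0.97), Tbc1d4 (0.94, 0.97), Skp2 (0.92, 0.74), Tmem39a (0.90, 0.80) and Scn7a (0.90, 0.95). Abi3bp, a matrix protein gene, read 7.40, 10.80 and 8.56 in FAP-TK controls and 5.68, 5.19 and 5.85 in FAP depleted tumours, without overlap. Scn7a, a sodium channel gene, read 7.44, 8.62 and 7.82 against 5.63, 5.08 and 6.53. Since the normalized Gli1 values separate the FAP-line groups, genes picked as most like Gli1 also separate them, and the likeness is a description of these 12 arrays. Among the members, Gli2 was the most like Gli1 (r = 0.80, rho = 0.74), a value that would stand at place 28. Gli3 followed at r = 0.59 (rho = 0.55) and Ptch1 at r = 0.55 (rho = 0.70), while Shh showed r = -0.01 (rho = -0.10). Gli2 and Gli3 were above the negative control median on only 5 of 12 arrays. They were thus not among the ranked genes themselves, and their values lie near background.

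For Ptch1 the most alike genes were Zfp943 (r = 0.92, rho = 0.90), Gab2 (0.91, 0.92), Sharpin (0.91, 0.92), Mtss2 (0.90, 0.92) and Trim3 (0.89, 0.93), and no gene was on the lists of both Ptch1 and Gli1. For Shh they were Stambpl1 (r = 0.97, rho = 0.97), Osbpl2 (0.95, 0.87), Gsto1 (0.93, 0.87), Sh3gl2 (0.91, 0.87) and Slc22a23 (0.91, 0.80). Ptch1 and Shh had r = -0.05 (rho = 0.10). The arrays of low separation enter each of these values.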

How the data were processed

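Total RNA of 12 tumours was measured on 1 one-colour array each. The deposited table holds the authors' processed log2 values for 72688 probe sets. The scale was read from the values. How background was corrected and probe sets were summarized or normalized is not given in the sources used here. Per the submitters' processing notes, limma was used, with no version given. The label protocol names a kit for Illumina arrays, whereas the identifiers have the form used on Affymetrix whole-transcript arrays.

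Groups were taken from the genotype in the labels. After 6732 control probe sets were left out, 65956 were quantile normalized, because the deposited distributions differed between arrays. Of 32750 probe sets with a listed gene, 30604 had 1 symbol, 2146 had several, and 33206 other probe sets had none. Through RefSeq (GRCm38.p6) 827 symbols were updated, and the probe set of highest mean was kept for the 355 genes with more than 1. Means of the 4 groups were fitted with limma 3.58.1 in R 4.3.3 (lmFit, eBayes), with Benjamini-Hochberg adjustment over all 30142 genes and calls at an adjusted p under 0.05. The fit was tested on simulated data, with added changes larger than the Gli1 and Ptch1 differences and without arrays of low separation. That test therefore does not bear on differences of the size reported for these genes. Exact permutation tests with 3 against 3 cannot go below 0.1. The number of arrays limits the precision.

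The members, the gene lists and the rule for named genes (all members, any gene of the wider list that was called, the 3 of smallest p in each depletion comparison, and the 5 most like Gli1, Ptch1 and Shh) were chosen with earlier results of these data known. Alternatives were the values as deposited, median centring, a filter on dim genes, the mean of a gene's probe sets, array weights, trended and robust variances, a fit of only the groups compared, control-probe separation as a covariate, leaving out 3 arrays of low separation, an adjusted p under 0.1, each array left out in turn, and, chosen after seeing the data, the fibroblast mean as a covariate.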

Additional observations from a re-analysis of the deposited data

How the results depend on the processing

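The number of arrays and the weak signal limit these results: most members lie near background, and a filter on dim genes left only Shh of the 9, so no median of the members was computed under it. The 3 arrays of low separation are all of the FAP line, and without them it keeps 1 control and 2 depleted tumours, whose spread is taken mostly from the aSMA line. No paired analysis was possible because the labels describe the animals as mouse 1 to mouse 12, and the numbers 1 to 3 used here only name the arrays of a group, so the groups share no replicate number. The cause of the changes below was not tested.

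With 1 array left out, genes called ranged from 0 to 4 for FAP depletion (4 without FAP depleted 2), 0 to 16 in the aSMA line (16 without labelled aSMA depleted 3, 1 without aSMA-TK control 1), 0 to 1 for the difference of effects (1 without aSMA-TK control 1), 508 to 3130 between control lines and 374 to 1874 between depleted lines. The members' median ranged from -0.37 to 0.11, -0.05 to 0.20, 0.24 to 0.65, -0.19 to 0.12 and 0.10 to 0.34 in the same order. Signs turned for Shh (-1.05 to 1.13), Smo (-0.21 to 0.59) and Hhip (-0.18 to 0.11) in the FAP line, for Ihh (-0.24 to 0.05), Gli1 (-0.07 to 0.10), Gli2 (-0.08 to 0.20) and Hhip (-0.07 to 0.28) in the aSMA line, and for Dhh in the difference of effects (-0.37 to 0.01). They turned between control lines for Shh (-1.30 to 0.88), Dhh (-0.19 to 0.00), Gli2 (-0.16 to 0.12) and Hhip (-0.12 to 0.17), and between depleted lines for Gli1 (-0.01 to 0.15) and Hhip (-0.01 to 0.34).

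For FAP depletion, 13 genes were called without the 3 arrays, and the members' median was -0.37 without them and 0.09 with array weights. Shh was -0.81 without them, Smo -0.03 as deposited and with median centring and -0.14 with separation as covariate, and Hhip 0.09 with weights and 0.04 with the fibroblast covariate. In the aSMA line the fibroblast covariate gave a median of -0.04, Dhh -0.04, Gli1 -0.06, Gli2 -0.06, Hhip -0.03 and Acta2 -0.39. For the difference of effects the median was 0.09 with weights and 0.11 with the fibroblast covariate, which gave Hhip -0.07.

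Between control lines, genes called were 12443 as deposited (424 higher, 12019 lower, beside 1440 and 910), 5769 with centring (3342 higher, 2427 lower), 0 with the dim filter, 212 with only these groups, 6658 with weights, 1012 with separation, 357 without the 3 arrays, 3880 with the fibroblast covariate and 5104 at an adjusted p under 0.1. The median was -0.72 as deposited, -0.27 with centring, -0.47 with separation and -0.39 without the 3 arrays. Shh was -0.12 as deposited, -0.37 with separation, -1.08 without the 3 arrays and -0.03 with the fibroblast covariate, and Ihh -0.20 as deposited. Smo was -0.72 as deposited, -0.27 with centring and -0.47 with separation, Gli2 0.10 with weights, and Hhip 0.14 with centring, 0.08 with weights and 0.02 with the fibroblast covariate.

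Between depleted lines, genes called were 14287 as deposited (332 higher, 13955 lower), 3391 with centring, 18 with the dim filter, 1 with only these groups, 4502 with weights, 634 without the 3 arrays, 147 with the fibroblast covariate and 3501 at an adjusted p under 0.1. As deposited the median was -0.24, Ihh -0.55, Gli1 -0.61, Gli2 -0.16, Gli3 -0.10, Hhip -0.24 and Boc -0.13. Ihh was -0.03 and Gli1 -0.08 with centring, Gli1 -0.10 and Hhip -0.03 with separation, and both -0.05 with the fibroblast covariate.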
